A study of Homo sapiens with 9 samples.

Results

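The nuclear genes of the respiratory chain and of ATP synthase were followed in a normal kidney tubule line and in a pair of renal carcinoma lines. Genes were taken by their symbols, which were NDUFA, NDUFB, NDUFC, NDUFS and NDUFV genes for complex I, SDHA, SDHB, SDHC and SDHD for complex II, CYC1 and UQCR genes for complex III, COX4I, COX5, COX6, COX7 and COX8 genes for complex IV, and ATP5F1, ATP5M and ATP5P genes for ATP synthase, which is called complex V below. Among the 28395 genes that were counted, 105 matched, and 3 pseudogenes, 4 noncoding genes, 2 read-through genes and 8 protein-coding genes with a mean below 50 counts over the 9 libraries were left out. Of the 88 genes that remained, 80 encode subunits, with 37 in complex I, 4 in complex II, 10 in complex III, 12 in complex IV and 17 in complex V. The other 8 are NDUFAF genes, which share the prefix but encode assembly factors of complex I, and they are counted apart. NDUFA4 was counted in complex IV, the enzyme its protein belongs to, and RefSeq now lists it as COXFA4. The lowest mean among the 80 subunit genes was that of ATP5F1E with 193 counts, followed by NDUFB1 with 659. The highest mean among the protein-coding genes below the limit of 50 counts was 24.0 counts, for ATP5MGL.

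The respiratory chain passes electrons from NADH (complex I) and succinate (complex II) through ubiquinone to complex III, from there through cytochrome c to complex IV, and finally to oxygen. Complexes I, III and IV pump protons across the inner mitochondrial membrane, and ATP synthase uses the gradient to make ATP. Most subunits are encoded in the nucleus and imported, a smaller hydrophobic set is encoded in mitochondrial DNA, and tubule cells of the kidney are known for a high demand for this pathway because of their salt transport.

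HK2 is an immortalized line of normal proximal tubule cells, 786-O is a line from a clear cell renal cell carcinoma (ccRCC), labelled parental as HK2 is, and 786-M1A is a metastatic derivative of 786-O. All cells were kept without treatment in Plasmax, a medium modeled on human plasma, and 3 libraries of each line were sequenced, 9 in all. Each line is a single model of its kind, so that tumor state and line of origin cannot be told apart, and the replicates were dishes of the same line, so that p-values measure the spread between dishes. RNA was taken from whole cultures, and fewer cells with a transcript and less transcript per cell cannot be told apart.

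Library totals lay between 30212291 and 45362428 counted reads, and the TMM factors of edgeR were between 0.967 and 1.03. Values below are CPM, the reads of a gene per 1000000 reads of a library after scaling by these factors, and "called" stands for an adjusted p-value under 0.05 in edgeR's quasi-likelihood test, adjusted over the 12695 genes tested. An exact two-sided permutation test of 3 against 3 libraries has 0.1 as its smallest p. The 13 protein genes of mitochondrial DNA were listed at 0 in every library, as were all 37 mitochondrial genes of the table, so the mitochondrially encoded subunits were not measured in these counts. The 10 proximal tubule markers, of which 3 were tested, summed to 278 to 283 CPM in HK2, 353 to 371 in 786-O and 283 to 310 in 786-M1A. Among them LRP2, the endocytic receptor of that segment, had at most 3 reads in every line, and HNF4A, a transcription factor, at most 3 in HK2 and in 786-M1A. The summed level of 8 ccRCC markers ranged from 1600 to 1690 CPM in HK2, with 5510 to 5620 CPM in 786-O and 7540 to 7780 CPM in 786-M1A. However, CA9 had at most 3 reads in HK2 and in 786-M1A, and NDUFA4L2 at most 3 in 786-O. Such a sum is led by its most abundant members and need not follow each marker. Of the 5 leukocyte markers PTPRC, CD3E and MS4A1 had at most 3 reads in each line, and the list summed to 49.1 to 53.7 CPM in HK2, compared with 26.6 to 27.6 in 786-O and 34.1 to 37.5 in 786-M1A. The 5 endothelial markers summed to at most 2.53 CPM in any library. Fibroblast markers summed to 77.2 to 86.4 CPM in HK2, with 279 to 348 in 786-O and 302 to 306 in 786-M1A, and their part in the results was not tested.

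Promoter sequence is given for the subunit genes furthest from HK2, so that the genes can be told apart by more than their numbers. COX7C (chr5:86617691-86617990, plus strand), ATP5MJ (chr14:103921480-103921779, minus strand) and NDUFA12 (chr12:95003648-95003947, minus strand) were the 3 subunit genes furthest below HK2 in 786-M1A, and SDHA (chr5:218070-218369, plus strand) and NDUFS7 (chr19:1383657-1383956, plus strand) were the 2 furthest above it. Sequences are from RefSeq on GRCh38.p14, 300 bases each from 250 before the gene start to 50 after it, 5′ to 3′ on the strand of the gene. Capitals mark TGCGCA, the core bound by NRF1, AAGATGG, bound by YY1, and CCGGAAG, bound by ETS factors such as GABPA, each on either strand.
COX7C: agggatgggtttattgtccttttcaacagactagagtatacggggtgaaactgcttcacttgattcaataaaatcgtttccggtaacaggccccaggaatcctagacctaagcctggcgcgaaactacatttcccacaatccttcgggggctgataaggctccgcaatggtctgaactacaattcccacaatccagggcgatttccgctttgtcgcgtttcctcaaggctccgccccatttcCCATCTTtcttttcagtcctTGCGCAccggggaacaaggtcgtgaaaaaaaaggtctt
ATP5MJ: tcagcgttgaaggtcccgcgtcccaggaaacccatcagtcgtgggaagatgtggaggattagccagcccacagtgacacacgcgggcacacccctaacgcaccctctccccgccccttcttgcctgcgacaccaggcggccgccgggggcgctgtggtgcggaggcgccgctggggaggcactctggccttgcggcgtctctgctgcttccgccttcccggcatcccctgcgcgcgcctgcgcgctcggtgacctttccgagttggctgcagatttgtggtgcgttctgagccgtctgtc
NDUFA12: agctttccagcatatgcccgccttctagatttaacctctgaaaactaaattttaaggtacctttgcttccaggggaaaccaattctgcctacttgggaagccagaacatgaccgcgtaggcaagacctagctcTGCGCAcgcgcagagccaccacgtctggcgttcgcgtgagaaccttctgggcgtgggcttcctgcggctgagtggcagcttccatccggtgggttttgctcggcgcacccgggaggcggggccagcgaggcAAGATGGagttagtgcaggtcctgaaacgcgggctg
SDHA: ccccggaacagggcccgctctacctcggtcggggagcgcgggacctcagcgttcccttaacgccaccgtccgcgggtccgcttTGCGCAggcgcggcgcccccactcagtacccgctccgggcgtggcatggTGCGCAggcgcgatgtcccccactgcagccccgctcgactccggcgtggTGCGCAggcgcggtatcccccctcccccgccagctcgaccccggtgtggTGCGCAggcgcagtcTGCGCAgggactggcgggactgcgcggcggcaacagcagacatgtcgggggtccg
NDUFS7: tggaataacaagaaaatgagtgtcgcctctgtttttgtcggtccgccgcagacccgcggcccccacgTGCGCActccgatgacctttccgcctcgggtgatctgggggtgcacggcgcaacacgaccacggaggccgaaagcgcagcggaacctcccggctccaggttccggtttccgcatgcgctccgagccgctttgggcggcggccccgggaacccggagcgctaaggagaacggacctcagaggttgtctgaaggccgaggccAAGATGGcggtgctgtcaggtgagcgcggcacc
COX7C, NDUFA12 and NDUFS7 each held 1 copy of the NRF1 core and 1 of the YY1 motif, the SDHA promoter held 5 copies of the NRF1 core, and none of the 3 motifs was found in the window of ATP5MJ. The NRF1 core was thus found both in genes that were lower and in genes that were higher than in HK2.

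Promoters were listed for 66 of the 80 subunit genes. The NRF1 core was present in 28.8% of these 66, in 8.42% of all 27305 promoters and in 13.8% of the 10191 promoters of genes tested. AAGATGG was present in 24.2% of the subunit promoters against 6.06% of all and 7.58% of those tested, and CCGGAAG in 30.3% against 10.7% and 19.7%. The hypoxia response core (ACGTG or GCGTG) was found in 60.6% against 48.4% and 64.1%, the GC box of SP1 (GGGCGG) in 60.6% against 44.6% and 71.0%, and the E-box of MYC and MAX (CACGTG), whose letters contain the hypoxia core, in 10.6% against 7.43% and 10.5%. Relative to HK2, the 19 subunit genes with the NRF1 core had a median log2 fold change of -0.34 in 786-O and -0.33 in 786-M1A, and the 47 without it 0.11 and 0.09. The E-box went the other way, with medians of 0.56 and 0.42 for the 7 genes that held it and -0.02 and -0.06 for the 59 that did not. For the 16 genes with AAGATGG the medians were -0.13 and -0.10, against 0.08 and 0.02 for the 50 without it. With the other motifs the medians were -0.02 and -0.06 for the hypoxia core (0.00 and 0.06 without it), 0.00 and -0.06 for the GC box (-0.05 and 0.06) and 0.00 and -0.03 for CCGGAAG (-0.02 and -0.01). A match is a description of the letters in this window only.

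Over all 5 complexes, subunit transcripts of the carcinoma lines moved in both directions relative to HK2. In 786-O 66 of 80 subunit genes were called, 34 higher and 32 lower, beside 84.2% of all genes tested (41.6% higher and 42.6% lower). In 786-M1A 69 of 80 were called against HK2, 34 higher and 35 lower, beside 84.9% of all genes (41.6% higher and 43.3% lower). The share of subunits called (82.5% and 86.2%) was therefore near the background, and the median log2 fold change of the 80 genes was 0.00 in 786-O and -0.02 in 786-M1A, with -0.01 and -0.02 over all genes. The summed level of the 80 genes was 7470 to 7940 CPM in HK2, compared with 7460 to 7780 in 786-O and 7240 to 7600 in 786-M1A, and these ranges overlapped. The 2 comparisons with HK2 share the HK2 libraries and are given side by side.

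Differences past 1.5-fold made up a smaller share of the subunits than of the genes tested, which was not tested further. Against a minimum of 1.5-fold, 8 subunit genes were called in 786-O relative to HK2, 4 higher and 4 lower, beside 34.5% of all genes (15.5% higher and 19.0% lower) and 25.7% of those averaging 1000 counts or more. In 786-M1A 15 were called relative to HK2, 5 higher and 10 lower (18.8%), beside 38.6% of all genes (17.3% higher and 21.2% lower) and 29.6% of those averaging 1000 counts or more. With upper-quartile normalization the split was 3 higher and 6 lower in 786-O and 3 higher and 10 lower in 786-M1A, and DESeq2 called 8 in 786-M1A, 2 higher and 6 lower. Without a filter on low counts the split in 786-M1A was 7 higher and 7 lower, and limma on median-centered log2 counts gave 5 higher and 6 lower, so that the excess of lower genes was not kept in every analysis. The largest difference of any subunit was 2.16-fold in 786-O (ATP5MJ) and 2.42-fold in 786-M1A (COX7C). The median absolute log2 fold change of the subunits was 0.33 in 786-O and 0.34 in 786-M1A, and 0.47 and 0.51 over all genes.

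**Figure D1:**
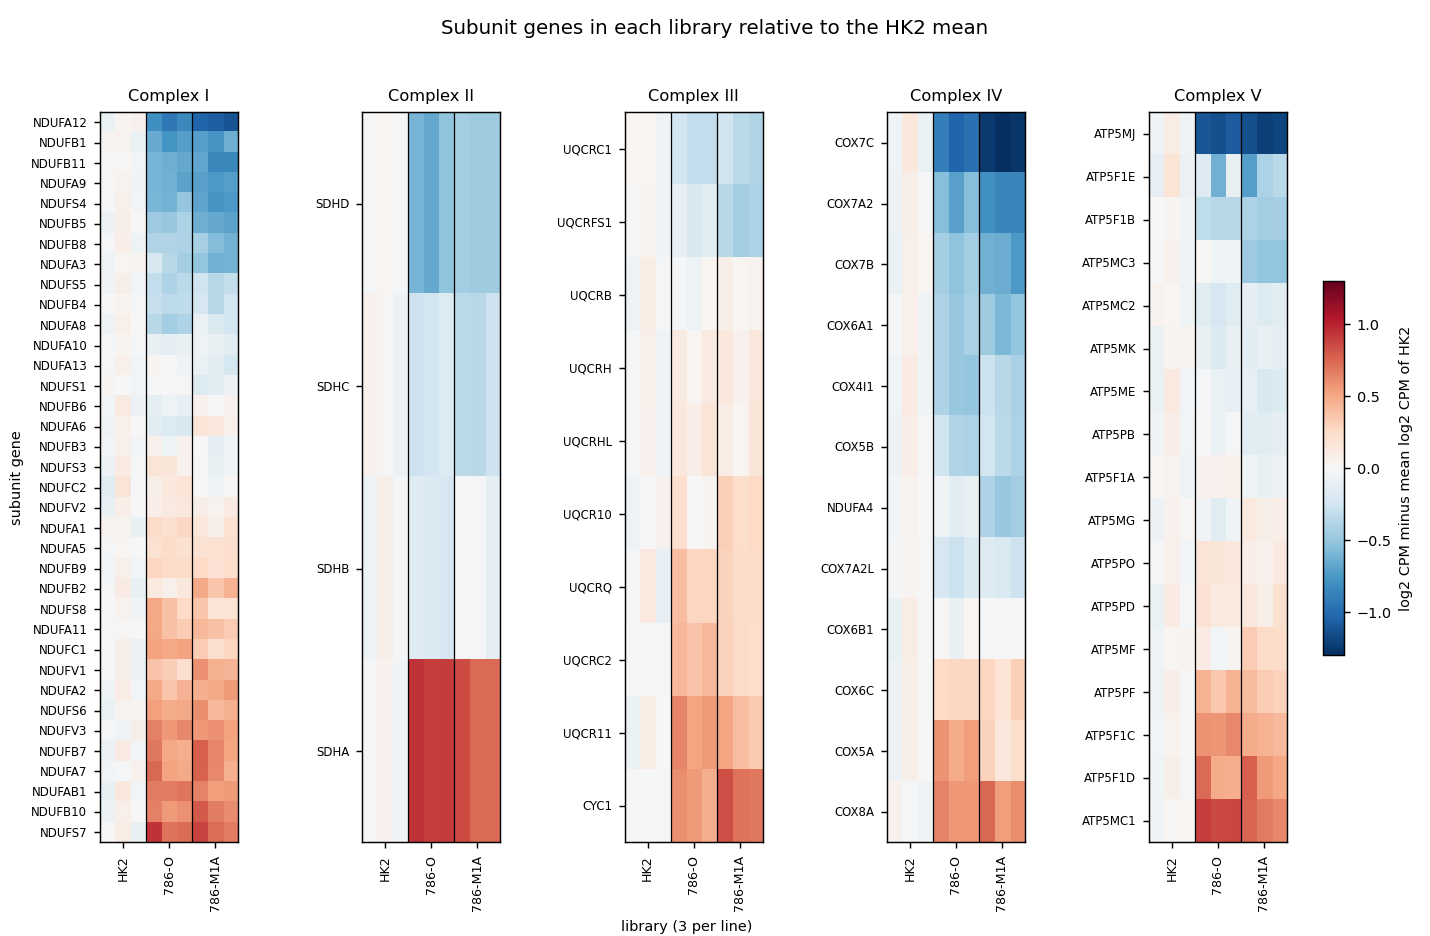
Color gives the log2 CPM of the subunit genes, 1 of them left out (vertical axis, ordered within each complex) in each library (horizontal axis, 3 per line) minus the mean log2 CPM of the HK2 libraries. Every complex held genes above and genes below HK2 in the carcinoma lines, and COX7C and ATP5MJ were the lowest of complexes IV and V.

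Between the carcinoma lines, 36 of 80 subunit genes were called in 786-M1A against 786-O, beside 56.0% of all genes tested. Of these 11 were higher, beside 27.9% of all genes, and 25 were lower, beside 28.0%. Their sizes were small, with a median absolute log2 fold change of 0.10 (0.17 over all genes) and a largest difference of 1.38-fold, for ATP5MC3. No subunit passed the minimum of 1.5-fold with edgeR (0 of 80, and also 0 at an unadjusted p under 0.05), beside 8.61% of all genes (3.14% higher and 5.47% lower) and 4.09% of those averaging 1000 counts or more, and the count was 0 with DESeq2, with limma-voom and under the other alternatives tried. The standard errors (SE) of the log2 fold changes had a median of 0.05 and were between 0.03 and 0.13, the highest being that of ATP5F1E.

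By complex, the median log2 fold change of 786-O relative to HK2 was 0.11 for complex I, -0.21 for complex II, 0.11 for complex III, -0.29 for complex IV and -0.03 for complex V. In 786-M1A relative to HK2 these medians were 0.04, -0.19, 0.18, -0.35 and -0.07. Complex IV had the lowest median in both, with a range over the alternative analyses, each left-out library included, of -0.33 to -0.24 and -0.40 to -0.30. The median of complex V in 786-O (-0.07 to 0.02) and that of complex I in 786-M1A (-0.01 to 0.10) changed sign between them. For complex I in 786-M1A it was 0.02 without HK2 replicate 1, 0.10 without HK2 replicate 2 and -0.01 without HK2 replicate 3. For complex I in 786-O it was 0.06 without HK2 replicate 1 or 3 and 0.16 without HK2 replicate 2. Between the carcinoma lines all medians were near 0, namely -0.04, 0.02, -0.04, -0.04 and -0.07. No test was made of a complex as a whole.

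**Figure D2:**
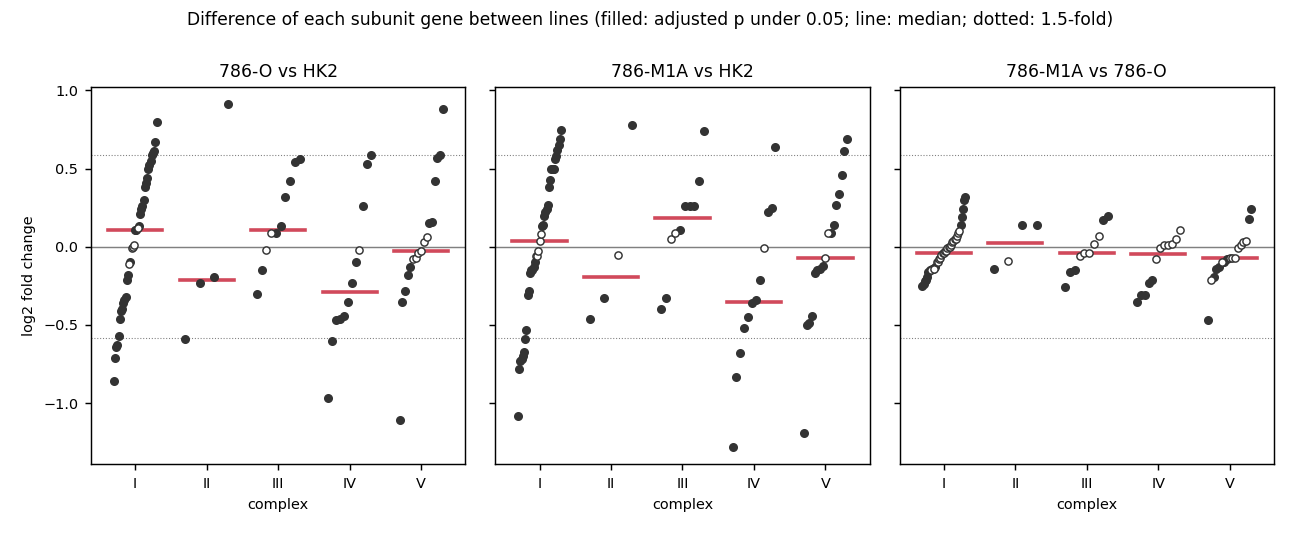
Log2 fold change of each subunit gene (vertical axis) by complex (horizontal axis) in the 3 comparisons, with filled points for genes called at an adjusted p under 0.05, a red line at the median of the complex and dotted lines at 1.5-fold. Complex IV lay mostly below 0 in both comparisons with HK2, and all 80 genes lay within the dotted lines between 786-M1A and 786-O.

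Complex I takes electrons from NADH, and its nuclear core subunits carry the flavin and the iron-sulfur clusters. NDUFS7, which holds the cluster next to ubiquinone, was measured at 21.7, 23.3 and 20.4 CPM in HK2, at 41.8, 35.4 and 36.0 in 786-O, and at 39.9, 35.9 and 34.5 in 786-M1A. Every carcinoma library was above every HK2 library, while the carcinoma lines overlapped. The log2 fold change relative to HK2 was 0.80 (SE 0.073, adjusted p = 1.51e-08) in 786-O and 0.75 (SE 0.073, adjusted p = 3.32e-08) in 786-M1A. NDUFV1, which binds NADH and the flavin, had 77.3, 81.0 and 73.2 CPM in HK2, 99.8, 96.2 and 89.6 in 786-O, and 116, 106 and 105 in 786-M1A. The lines did not overlap and rose in this order, with a log2 fold change of 0.30 (adjusted p = 1.11e-05) in 786-O and 0.50 (adjusted p = 8.82e-09) in 786-M1A relative to HK2 and of 0.19 (adjusted p = 0.00249) between the carcinoma lines.

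NDUFS8, an iron-sulfur subunit between the peripheral arm and the ubiquinone site, was higher in 786-O (log2 fold change 0.38, adjusted p = 1.93e-05) and in 786-M1A (0.24, adjusted p = 0.00191). NDUFS1, the largest subunit of the iron-sulfur arm, was level in 786-O with 135 to 138 CPM against 134 to 140 in HK2 (adjusted p = 0.982), and lower in 786-M1A with 121 to 130 CPM (-0.13, adjusted p = 0.00322). NDUFS3 was higher in 786-O (0.13, adjusted p = 0.0236), although its libraries overlapped with those of HK2, and was not called in 786-M1A (-0.06, adjusted p = 0.277). NDUFV2, which carries a cluster beside the flavin, differed by 0.11 in 786-O (adjusted p = 0.0347), with overlapping libraries, and by 0.08 in 786-M1A (adjusted p = 0.148).

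Among the 30 accessory subunits of complex I, 13 were higher and 13 lower in 786-O relative to HK2, and 14 were higher and 13 lower in 786-M1A. The numbers called (26 and 27 of 30) stand beside 84.2% and 84.9% of all genes and were near this background. NDUFA12, an accessory subunit whose assembly-factor relative is NDUFAF2, had 74.8, 81.7 and 82.5 CPM in HK2, 45.7, 41.8 and 44.4 in 786-O, and 38.8, 37.8 and 36.6 in 786-M1A. The 3 lines did not overlap, HK2 being highest and 786-M1A lowest. Its log2 fold change was -0.86 (SE 0.048, adjusted p = 2.39e-13) in 786-O and -1.08 (SE 0.049, adjusted p = 4.93e-15) in 786-M1A relative to HK2, and -0.22 (SE 0.05, adjusted p = 0.000742) between the carcinoma lines. NDUFB1, a small membrane-arm subunit, was at 21.3 to 23.4 CPM in HK2, with 13.2 to 14.4 in 786-O and 13.3 to 14.6 in 786-M1A, with log2 fold changes relative to HK2 of -0.71 (adjusted p = 4.85e-10) and -0.70 (adjusted p = 6.33e-10). NDUFB11, a membrane-arm subunit encoded on the X chromosome, was at 79.6 to 82.7 CPM in HK2 and lower at 51.5 to 53.8 in 786-O and 45.6 to 51.0 in 786-M1A. Its log2 fold change was -0.63 (adjusted p = 2.42e-11) and -0.78 (adjusted p = 6.3e-13).

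NDUFS4, NDUFA9, NDUFB5 and NDUFB8 were lower in both carcinoma lines too, with log2 fold changes of -0.57, -0.64, -0.46 and -0.40 in 786-O and of -0.73, -0.72, -0.67 and -0.53 in 786-M1A relative to HK2. On the higher side, NDUFAB1, the mitochondrial acyl carrier protein, was at 34.9, 41.0 and 36.5 CPM in HK2, 59.7, 59.3 and 60.4 in 786-O, and 58.3, 54.6 and 55.0 in 786-M1A. HK2 was below both carcinoma lines without overlap, and the log2 fold change was 0.67 (SE 0.052, adjusted p = 7.17e-11) in 786-O and 0.58 (SE 0.052, adjusted p = 1.02e-09) in 786-M1A. NDUFB10, a disulfide-rich membrane-arm subunit, was at 43.5 to 48.3 CPM in HK2, compared with 67.6 to 72.3 in 786-O and 70.6 to 80.0 in 786-M1A, with log2 fold changes of 0.60 (adjusted p = 4.11e-10) and 0.69 (adjusted p = 2.99e-11). Also higher in both lines were NDUFA7 (0.59 and 0.62), NDUFV3 (0.61 and 0.56), NDUFB7 (0.55 and 0.65), NDUFA2 (0.44 and 0.50) and NDUFS6 (0.50 in each).

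NDUFA6, a LYR-motif accessory subunit that holds the acyl carrier protein, had 54.4, 59.4 and 57.0 CPM in HK2, 51.7, 50.2 and 49.2 in 786-O, and 63.9, 63.0 and 59.5 in 786-M1A. It was the subunit gene called lower in 786-O (log2 fold change -0.18, adjusted p = 0.00115) and higher in 786-M1A (0.13, adjusted p = 0.0139) relative to HK2, and the difference between the carcinoma lines was 0.30 (SE 0.045, adjusted p = 7.21e-06). NDUFB2 had the largest positive log2 fold change of 786-M1A against 786-O in the complex, 0.32 (SE 0.05, adjusted p = 1.22e-05), with 66.0 to 72.3 CPM against 54.0 to 56.7. NDUFA3 (-0.25, adjusted p = 0.00272) and NDUFC1 (-0.24, adjusted p = 0.000376) had the largest negative ones. Of the 37 subunits of complex I, 5 were higher and 10 lower between these lines (40.5% called, beside 56.0% of all genes).

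Of the 8 NDUFAF assembly factors, 4 were higher and 3 lower than HK2 in each carcinoma line. The share called was 87.5% in each, near the 84.2% and 84.9% of all genes. NDUFAF6 had 14.2, 15.7 and 15.3 CPM in HK2, 23.7, 24.7 and 24.4 in 786-O, and 29.4, 30.1 and 31.1 in 786-M1A, and it rose without overlap in this order, with log2 fold changes of 0.68 (adjusted p = 1.36e-10) and 1.00 (adjusted p = 1.18e-13) relative to HK2. NDUFAF5, which hydroxylates NDUFS7, was lower at 7.68 to 8.86 CPM in 786-O and 8.76 to 9.52 in 786-M1A, against 15.1 to 16.1 in HK2 (-0.87, adjusted p = 1.63e-10, and -0.75, adjusted p = 1.83e-09). NDUFAF1 was higher in 786-O (0.54, adjusted p = 7.15e-07) and not called in 786-M1A relative to HK2 (-0.11, adjusted p = 0.217), at 10.9 to 12.6 CPM against 7.70 to 8.56 in HK2 and 7.32 to 7.80 in 786-M1A, and the difference between the carcinoma lines was -0.64 (SE 0.075, adjusted p = 2.28e-07).

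Complex II oxidizes succinate and belongs to both the tricarboxylic acid cycle and the chain, and its flavin-bearing catalytic subunit SDHA differed most. SDHA had 197, 207 and 194 CPM in HK2, 382, 371 and 374 in 786-O, and 358, 333 and 332 in 786-M1A. All carcinoma libraries were above all HK2 libraries, and 786-M1A was below 786-O without overlap. The log2 fold change was 0.91 (1.88-fold, SE 0.038, adjusted p = 1.63e-15) in 786-O and 0.78 (1.71-fold, SE 0.038, adjusted p = 2.64e-14) in 786-M1A relative to HK2, and -0.14 (adjusted p = 0.00404) between the carcinoma lines. The other 3 subunits did not follow it. SDHD, a membrane anchor with heme, had 65.9, 67.9 and 65.7 CPM in HK2, 43.8, 41.8 and 46.4 in 786-O, and 48.6, 48.3 and 48.3 in 786-M1A, and was lower in both lines (-0.59, adjusted p = 3.82e-11, and -0.46, adjusted p = 2.85e-09). SDHC, the other anchor, was lower as well (-0.23, adjusted p = 4.02e-05, and -0.33, adjusted p = 4.74e-07). SDHB, the iron-sulfur subunit, was at 103 to 114 CPM in HK2, with 92.9 to 96.0 in 786-O and 99.0 to 107 in 786-M1A, lower in 786-O (-0.19, adjusted p = 0.000421) and not called in 786-M1A (-0.05, adjusted p = 0.267). Reads of SDHA can be split with the near copies SDHAP1, SDHAP2, SDHAP3 and SDHAP4, whose log2 fold changes relative to HK2 were between -0.23 and 0.08 and were not called in either line.

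Complex III passes electrons from ubiquinol to cytochrome c through cytochrome c1 (CYC1) and the Rieske iron-sulfur protein (UQCRFS1). CYC1 had 124, 122 and 121 CPM in HK2, 186, 179 and 170 in 786-O, and 218, 200 and 197 in 786-M1A. The lines did not overlap, with log2 fold changes of 0.54 (SE 0.043, adjusted p = 1.23e-10) and 0.74 (SE 0.043, adjusted p = 4.76e-13) relative to HK2 and 0.20 (adjusted p = 0.00045) between 786-M1A and 786-O. UQCRFS1 took the opposite course, at 57.7 ± 1.67 CPM (SD, n = 3) in HK2, compared with 52.0 ± 1.90 in 786-O and 43.6 ± 1.39 in 786-M1A. It was lower in 786-O (-0.15, adjusted p = 0.00432), in 786-M1A (-0.40, adjusted p = 3.17e-08) and in 786-M1A against 786-O (-0.26, adjusted p = 5.32e-05). The large structural subunits, which resemble a mitochondrial processing peptidase, differed from each other, since UQCRC1 was lower (-0.30, adjusted p = 1.14e-06, and -0.33, adjusted p = 1.94e-07) and UQCRC2 higher (0.42, adjusted p = 1.41e-09, and 0.26, adjusted p = 2.54e-06). UQCR11 was higher in both lines (0.56, adjusted p = 2.96e-09, and 0.42, adjusted p = 3.53e-07). In all, 6 of 10 genes of the complex were higher and 2 lower in each line relative to HK2 (60% and 20%). Over all genes 41.6% were higher in each comparison, and 42.6% and 43.3% lower. In 786-O the 6 higher genes included UQCRH (0.09) and its near copy UQCRHL (0.13). UQCRB was called in neither line, but it shares sequence with the pseudogene UQCRBP1 in the table, and UQCRH with UQCRHL, so that their values are uncertain.

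Complex IV reduces oxygen, and 8 of its 12 nuclear subunit genes were lower and 3 higher in 786-O and in 786-M1A relative to HK2. The lower genes were 66.7% of the complex, beside 42.6% and 43.3% of all genes tested, and the higher ones 25%, beside 41.6% in each, a difference that was not tested. The largest difference of the complex was that of COX7C, a small transmembrane subunit, with 93.6, 106 and 91.2 CPM in HK2, 52.1, 47.2 and 49.5 in 786-O, and 40.9, 39.0 and 40.3 in 786-M1A. The 3 lines stood apart, and the log2 fold change was -0.97 (1.95-fold lower, SE 0.053, adjusted p = 4.62e-13) in 786-O and -1.28 (2.42-fold lower, SE 0.054, adjusted p = 5.08e-15) in 786-M1A relative to HK2, and -0.31 (adjusted p = 8.04e-05) between the carcinoma lines. COX7A2, the widely expressed form of subunit VIIa, had 99.5, 110 and 103 CPM in HK2, 70.9, 64.0 and 70.9 in 786-O, and 60.4, 57.7 and 57.7 in 786-M1A, again without overlap (-0.60, adjusted p = 1.19e-10, and -0.83, adjusted p = 4.83e-13). COX7B, encoded on the X chromosome, was at 116 to 129 CPM in HK2 and lower at 86.2 to 91.2 in 786-O and 73.6 to 80.2 in 786-M1A (-0.47, adjusted p = 3.61e-09, and -0.68, adjusted p = 7.82e-12). COX4I1, the most abundant of the 12 per kb and a regulatory subunit that binds ATP, was lower by less (-0.46, adjusted p = 2.49e-08, and -0.36, adjusted p = 9.29e-07), as were COX6A1 (-0.44 and -0.52) and COX5B (-0.35 and -0.34).

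COX8A and COX5A departed from this in the other direction. COX8A, another small transmembrane subunit, had 72.0, 68.3 and 67.1 CPM in HK2, 108, 102 and 102 in 786-O, and 116, 101 and 105 in 786-M1A, above HK2 in every carcinoma library (0.59, adjusted p = 2e-10, and 0.64, adjusted p = 5.3e-11). COX5A, which sits on the matrix side, was highest in 786-O, with 67.2, 74.3 and 70.8 CPM in HK2, 106, 98.9 and 103 in 786-O, and 87.2, 77.7 and 83.1 in 786-M1A, and the log2 fold change was 0.53 (adjusted p = 8.86e-10) in 786-O, 0.22 (adjusted p = 0.000203) in 786-M1A and -0.31 (adjusted p = 9.41e-06) between them. The other gene above HK2 was COX6C (0.26, adjusted p = 1.18e-05, and 0.25, adjusted p = 1.98e-05). NDUFA4 was near HK2 in 786-O (-0.10, adjusted p = 0.0299) and lower in 786-M1A, with 76.9, 81.6 and 78.6 CPM in HK2, 76.1, 71.2 and 73.7 in 786-O, and 59.7, 56.1 and 57.7 in 786-M1A. Its log2 fold change was -0.45 (adjusted p = 2.21e-09) in 786-M1A relative to HK2 and -0.35 (SE 0.043, adjusted p = 4.72e-07) relative to 786-O, the largest negative one of the complex. Between the carcinoma lines 5 of the 12 genes were lower (41.7%, beside 28.0% of all genes) and the others were not called.

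**Figure D3:**
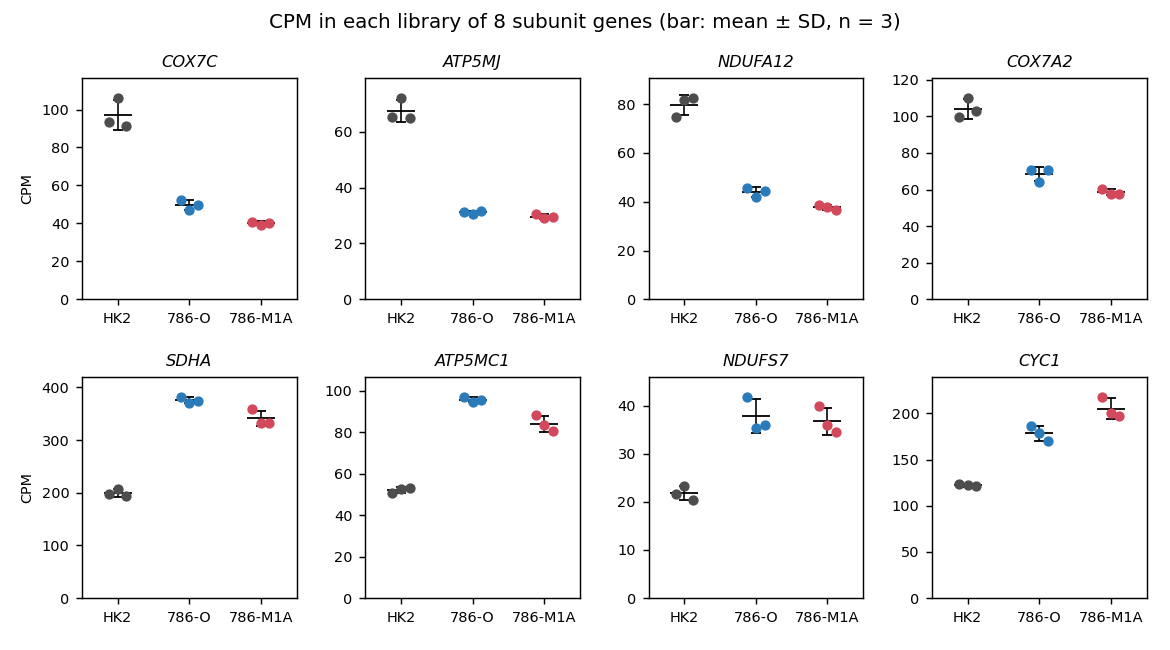
CPM (vertical axis, starting at 0) of 8 subunit genes in the 3 libraries of each line, with black bars for the mean and the SD. The upper row (COX7C, ATP5MJ, NDUFA12, COX7A2) was lower and the lower row (SDHA, ATP5MC1, NDUFS7, CYC1) higher in each carcinoma library than in each HK2 library.

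ATP synthase, the rotary enzyme of the pathway, has an F1 part with a catalytic head (alpha and beta subunits) and a central stalk (gamma, delta and epsilon). ATP5F1B, the catalytic beta subunit and the most abundant of the 80 genes per kb in every line, had 873, 890 and 844 CPM in HK2, 692, 676 and 676 in 786-O, and 651, 633 and 644 in 786-M1A. It decreased without overlap, by log2 fold changes of -0.35 (SE 0.032, adjusted p = 1.62e-09) in 786-O and -0.44 (SE 0.033, adjusted p = 3.86e-11) in 786-M1A. ATP5F1A, the alpha subunit, was called in neither line relative to HK2 (0.06, adjusted p = 0.116, and -0.07, adjusted p = 0.0623). ATP5F1C, the gamma subunit of the rotor, was higher, at 140 to 148 CPM in HK2, with 214 to 221 in 786-O and 193 to 201 in 786-M1A (0.59, adjusted p = 1.34e-12, and 0.46, adjusted p = 1.22e-10). ATP5F1D, the delta subunit, was higher too (0.57, adjusted p = 4.43e-05, and 0.61, adjusted p = 2.31e-05), so that genes of the F1 part differed in direction. The epsilon subunit gene ATP5F1E had 5.35 to 6.51 CPM in HK2, compared with 3.72 to 5.39 in 786-O and 3.51 to 4.50 in 786-M1A, but its pseudogene ATP5F1EP2 was listed with 54.9 to 66.6, 47.7 to 58.7 and 51.7 to 54.5 CPM, and reads of these copies cannot be told apart with certainty.

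Furthest from HK2 in this complex was ATP5MJ, a small membrane-sector subunit, with 65.4, 72.1 and 65.1 CPM in HK2, 31.2, 30.6 and 31.8 in 786-O, and 30.5, 29.0 and 29.5 in 786-M1A. HK2 was above both lines by a wide gap, and the log2 fold change was -1.11 (2.16-fold lower, SE 0.048, adjusted p = 2.39e-15) in 786-O and -1.19 (2.28-fold lower, SE 0.048, adjusted p = 8.36e-16) in 786-M1A. ATP5MF and ATP5MG, subunits of the same sector, had the largest positive log2 fold changes of complex V in 786-M1A against 786-O, 0.24 (adjusted p = 8.28e-05) and 0.18 (adjusted p = 0.00163). The remaining stalk and membrane subunits (ATP5PB, ATP5PD, ATP5PF, ATP5PO, ATP5ME and ATP5MK) had log2 fold changes between -0.17 and 0.42 relative to HK2.

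The c subunit, whose copies form the proton-driven ring, is encoded by 3 genes with the same mature protein. Per kb of transcript, ATP5MC1 rose from 80.6 CPM in HK2 to 148 in 786-O and 130 in 786-M1A, ATP5MC2 was at 232, 205 and 210, and ATP5MC3 at 75, 73.4 and 53.1. For ATP5MC1 the libraries were at 50.5, 52.8 and 53.0 CPM in HK2, 97.0, 94.5 and 95.4 in 786-O, and 88.2, 83.3 and 80.3 in 786-M1A, and the log2 fold change was 0.88 (SE 0.043, adjusted p = 2.35e-14) and 0.69 (SE 0.043, adjusted p = 1.76e-12). ATP5MC2 was lower than HK2 in both lines (-0.18, adjusted p = 0.000241, and -0.15, adjusted p = 0.00163). ATP5MC3 showed the largest difference of any subunit between the carcinoma lines, with 193, 202 and 187 CPM in HK2, 196, 187 and 186 in 786-O, and 140, 137 and 136 in 786-M1A. HK2 and 786-O overlapped (adjusted p = 0.48), whereas 786-M1A was below 786-O by a log2 fold change of -0.47 (SE 0.039, adjusted p = 1.36e-09) and below HK2 by -0.50 (adjusted p = 8.75e-11). The sum of the 3 genes was 388 ± 11.2 CPM per kb (SD, n = 3) in HK2, with 426 ± 7.08 in 786-O and 393 ± 9.43 in 786-M1A. Within this sum the share of ATP5MC1 was 20.8% ± 0.969 in HK2, compared with 34.7% ± 0.184 in 786-O and 33.1% ± 0.905 in 786-M1A, and that of ATP5MC3 19.3% ± 0.363, 17.2% ± 0.363 and 13.5% ± 0.120.

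**Figure D4:**
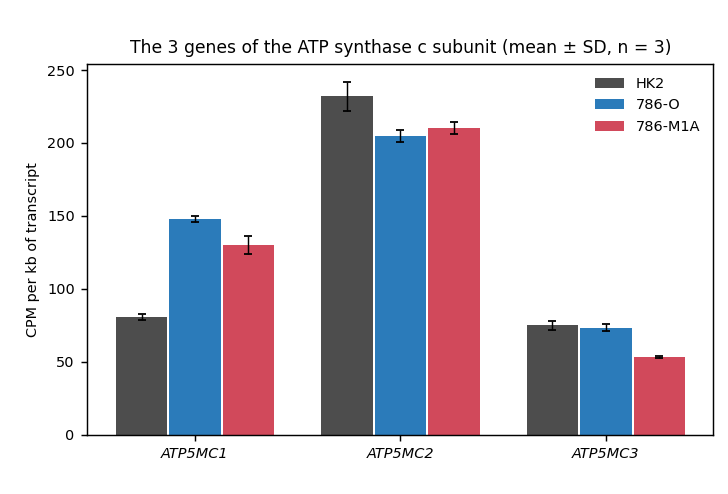
Mean CPM per kb of transcript (vertical axis, starting at 0) of the 3 genes of the c subunit in HK2, 786-O and 786-M1A, with the SD of 3 libraries as error bars. ATP5MC1 was higher in both carcinoma lines than in HK2 (148 and 130 against 80.6) and ATP5MC3 was lowest in 786-M1A (53.1).

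Tissue-specific isoforms of complex IV and its companions were close to absent in all 3 lines. COX6A2, the heart and skeletal muscle form of COX6A1, had 48, 69 and 79 reads in the HK2 libraries and 0 in each library of 786-O and 786-M1A. Against a floor of 3 counts per library, it was higher in HK2 by roughly 22.7-fold or more and 21.3-fold or more. The floor was not scaled by the TMM factors, so that these limits are approximate. COX6B2, the testis form of COX6B1, had 19, 23 and 28 reads in HK2, 6, 0 and 2 in 786-O, and 1, 0 and 2 in 786-M1A. NDUFA4L2, a HIF-responsive relative of NDUFA4 that is known as a marker of ccRCC tissue, had 8, 4 and 5 reads in HK2, 0, 0 and 1 in 786-O, and 1, 4 and 6 in 786-M1A, and no carcinoma library exceeded the highest HK2 count. COX4I2, the hypoxia-linked form of COX4I1, had 0 reads in all 9 libraries. COX7A1, the muscle form of COX7A2, had 0 to 5 reads, COX7B2 and COX8C at most 1, and COX7A2L, the supercomplex factor, was at 82.6 to 103 CPM and lower than HK2 in both lines (-0.23, adjusted p = 2.94e-05, and -0.21, adjusted p = 8.34e-05).

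Per kb of transcript, ATP5F1B, COX4I1, ATP5ME and ATP5MF were among the 5 most abundant subunits of each line, ATP5F1E left aside. The median of complex I was 56.3 CPM per kb in HK2, with 60.0 in 786-O and 62.5 in 786-M1A, that of complex II 75.6, 79.4 and 81.8, and that of complex III 58.7, 68.8 and 67.9. Complex IV had 134, 112 and 112, and complex V without ATP5F1E 126, 144 and 136. The highest of all were ATP5F1B with 494, 387 and 365 CPM per kb and COX4I1 with 379, 275 and 296. At the other end, NDUFV3 was listed at 2.79, 4.27 and 4.12, which depends on the length of its canonical transcript. Complex IV was thus the complex whose median per kb was highest in HK2 but not in the carcinoma lines, where complex V was above it. Medians of levels can fall on different genes in each line and need not follow the changes of the members. Relative to HK2 the median log2 fold change of complex II was -0.21 in 786-O and -0.19 in 786-M1A. For complex V, with ATP5F1E included, it was -0.03 and -0.07.

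On some chromosomes all subunit genes shared a direction, a pattern looked for after the values had been seen. All 5 subunit genes on chromosome 12 (NDUFA9, ATP5MC2, ATP5F1B, NDUFA12 and COX6A1) were lower in both carcinoma lines than in HK2, as were both on chromosome 14 (NDUFB1 and ATP5MJ) and all 3 on chromosome 3 (UQCRC1, NDUFB4 and NDUFB5). All 3 on chromosome 21 (ATP5PF, ATP5PO and NDUFV3) were higher in both lines. Other chromosomes were mixed. Of 10 genes on chromosome 19, 6 were higher in each line, with 2 lower in 786-O and 3 lower in 786-M1A. Of 6 on chromosome 5, 4 were higher and 2 lower in each. Of 7 on chromosome 1, 2 were higher and 4 lower in 786-O, and 1 higher and 4 lower in 786-M1A. Over all genes tested, 41.6% were higher in each comparison with HK2, and 42.6% (786-O) and 43.3% (786-M1A) were lower. With so few subunit genes on a chromosome, a shared direction was not tested and is not read as a trait of the subunits. Genes of a chromosome can lie far apart, as those of chromosome 3 do. For each of the 80 genes the median log2 fold change of the other tested genes within 10 Mb, 31 to 339 of them, was therefore set beside its own. Relative to HK2, SDHA at 0.91 in 786-O lay in a neighborhood with a median of 0.92, ATP5F1C at 0.59 in one of 0.61, ATP5F1D at 0.57 in one of 0.55, NDUFB1 at -0.71 in one of -0.67, and ATP5F1B at -0.35 in one of -0.36. UQCRC1 on chromosome 3 went against its surroundings, at -0.30 in 786-O with neighbors at 0.13. Between the carcinoma lines, NDUFB2 at 0.32 lay beside neighbors at 0.28, NDUFA6 at 0.30 beside 0.27, COX5A at -0.31 beside -0.34, and NDUFA4 at -0.35 beside -0.26.

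Across the 80 subunit genes, own and neighborhood log2 fold changes were correlated with Pearson's r of 0.791 (Spearman's rho 0.819) for 786-O relative to HK2, 0.780 (0.789) for 786-M1A relative to HK2 and 0.633 (0.509) between the carcinoma lines. Over 12655 genes tested r was 0.190, 0.185 and 0.193 (rho 0.404, 0.392 and 0.339), and over the 7103 averaging 1000 counts or more it was 0.283, 0.267 and 0.289 (rho 0.496, 0.488 and 0.420). These are descriptions across genes, which are not independent, since near genes share neighbors and all share the same libraries. Subtracting the neighborhood lowered the median absolute log2 fold change of the subunits from 0.331 to 0.129 in 786-O and from 0.335 to 0.171 in 786-M1A relative to HK2, and from 0.0987 to 0.0876 between the carcinoma lines. Over all genes it went from 0.467 to 0.368, from 0.508 to 0.417 and from 0.173 to 0.150. Within 0.2 of their neighbors lay 48, 44 and 73 of the 80 genes (60.0%, 55.0% and 91.2%), beside 30.3%, 27.0% and 60.5% of all genes and 37.2%, 33.5% and 71.6% of those averaging 1000 counts or more. What the genes of a stretch have in common was not tested, and gene copies in the DNA were not measured in these data.

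Several subunits stood away from their surroundings. More than 0.5 above the neighborhood in both comparisons with HK2 were ATP5MC1 (0.88 in 786-O with neighbors at 0.14), NDUFC1 (0.52 with neighbors at -0.55) and NDUFA1 (0.24 with neighbors at -0.54). More than 0.5 below in both were COX7C (-0.97 in 786-O with neighbors at -0.41), ATP5MJ (-1.11 with neighbors at -0.53) and SDHD (-0.59 with neighbors at 0.05). In 786-M1A, ATP5MC3, NDUFA12, NDUFA13, UQCRC1 and ATP5F1E joined the lower group. Between the carcinoma lines 0 of 80 were more than 0.5 away from their neighbors, and the furthest was ATP5MC3 at -0.47 with neighbors at 0.02. Below their neighbors in 786-O relative to HK2 were 24 of 37 genes of complex I, 4 of 4 of complex II, 5 of 10 of complex III, 9 of 12 of complex IV and 10 of 17 of complex V. In 786-M1A these were 27, 4, 6, 8 and 12 genes. For these counts, and for those more than 0.5 away, no share over all genes tested is given. They are therefore not read as traits of the subunits.

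**Figure D5:**
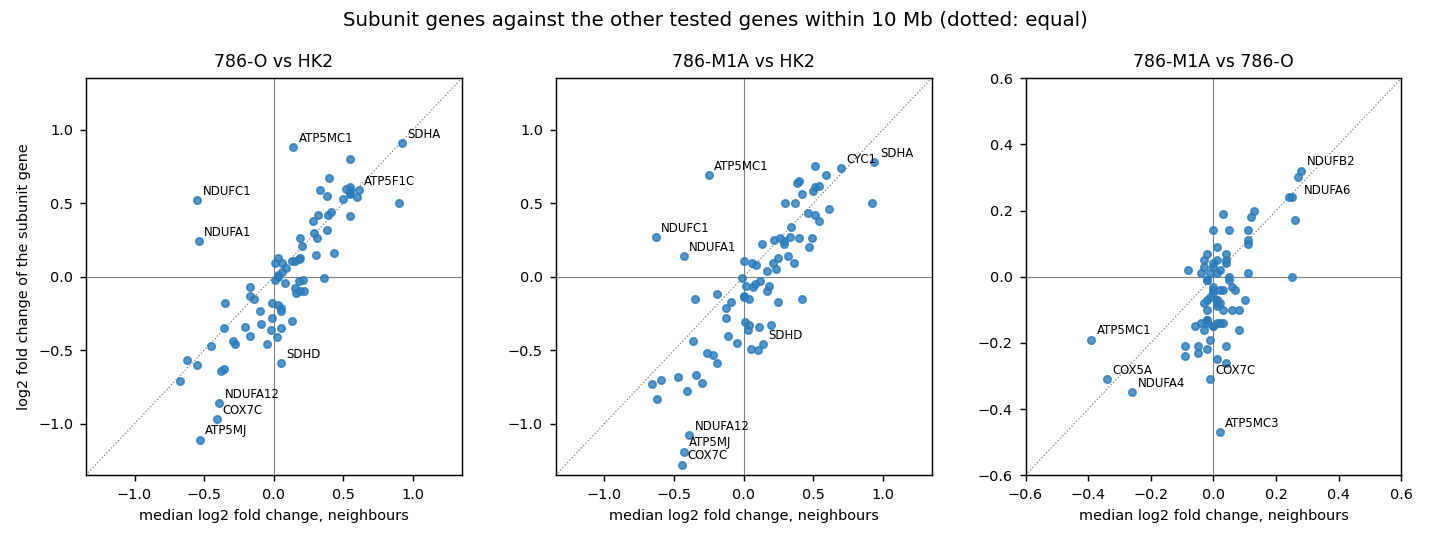
Log2 fold change of each of the 80 subunit genes (vertical axis) against the median log2 fold change of the other tested genes within 10 Mb (horizontal axis) in the 3 comparisons, with a dotted line at equal values. Most genes lay near the line, COX7C and ATP5MJ below it and ATP5MC1 and NDUFC1 above it in the comparisons with HK2, and ATP5MC3 lay furthest below it between the carcinoma lines.

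The factors that build the complexes differed between lines in both directions as well. Of 21 complex IV assembly factors tested, 11 were lower and 7 higher in 786-O and 14 lower and 4 higher in 786-M1A relative to HK2, which is 85.7% called in each beside 84.2% and 84.9% of all genes. The lowest were COX16 (-0.96, adjusted p = 1.66e-08, and -1.07, adjusted p = 5.07e-09), which helps to mature COX2, and PET117 (-0.84, adjusted p = 6.17e-07, and -1.04, adjusted p = 4.79e-08). COA3 was lower in 786-M1A (-0.85, adjusted p = 7.34e-13) and between the carcinoma lines (-0.37, adjusted p = 2.9e-06). Of 11 complex I factors, 6 were higher and 2 lower in 786-O and 8 higher and 2 lower in 786-M1A (72.7% and 90.9% called), led by FOXRED1 (0.85, adjusted p = 1.08e-11, and 1.20, adjusted p = 1.84e-14), with NUBPL, an iron-sulfur carrier, lower (-0.81, adjusted p = 4.61e-09, and -0.80, adjusted p = 6.84e-09). Of 4 complex II factors, 1 was lower in 786-O, and 1 was higher and 1 lower in 786-M1A (1 and 2 of 4 called). SDHAF3, a factor that protects the iron-sulfur subunit of complex II, had 13.5, 13.9 and 13.0 CPM in HK2, 12.6, 12.5 and 14.0 in 786-O, and 21.8, 24.1 and 20.5 in 786-M1A. It stood apart in 786-M1A, with a log2 fold change of 0.76 (SE 0.067, adjusted p = 3.49e-09) against 786-O. Of 6 complex III factors 3 were higher and 1 lower in 786-O and 4 higher and 1 lower in 786-M1A, which is 66.7% and 83.3% called, with UQCC3 the highest (0.67 and 1.01). For ATP synthase 3 of 6 factors were higher and 2 lower in each line relative to HK2 (83.3% called), and ATPAF2, the chaperone of the alpha subunit, was lower (-0.77, adjusted p = 3.92e-09, and -1.09, adjusted p = 2.54e-11). Between the carcinoma lines, 4 complex IV factors were higher and 6 lower, 4 complex I factors higher and 3 lower, and 2 ATP synthase factors higher and 2 lower, which is 47.6%, 63.6% and 66.7% called beside 56.0% of all genes.

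Electron carriers and their makers were mixed. Of 14 genes, 7 were higher and 5 lower in 786-O, and 6 higher and 7 lower in 786-M1A relative to HK2, while 7 were lower and the others not called between the carcinoma lines. The shares called (12, 13 and 7 of 14) stand beside 84.2%, 84.9% and 56.0% of all genes. COQ8A, an atypical kinase needed for ubiquinone synthesis, was lowest (-1.35, adjusted p = 1.51e-15, and -1.92, adjusted p = 7.28e-18). Cytochrome c itself (CYCS) had 158, 184 and 165 CPM in HK2, 220, 226 and 222 in 786-O, and 183, 183 and 187 in 786-M1A. It was highest in 786-O (0.40, adjusted p = 2.96e-08) and lower again in 786-M1A against 786-O (-0.27, adjusted p = 2.12e-05). Of 8 other enzymes that feed electrons to ubiquinone, 4 were higher and 4 lower in 786-O and 3 higher and 3 lower in 786-M1A (8 and 6 of 8 called). ETFDH, which takes electrons from fatty acid oxidation, had 18.1, 19.6 and 18.8 CPM in HK2, 10.8, 11.3 and 10.8 in 786-O, and 18.0, 17.7 and 19.1 in 786-M1A. It was lower in 786-O than in HK2 (-0.78, adjusted p = 7.66e-11), was not called in 786-M1A relative to HK2 (-0.05, adjusted p = 0.464), and was above 786-O in 786-M1A (0.74, adjusted p = 1.22e-09). CHDH, which oxidizes choline, had 3.89 to 4.61 CPM in HK2 and at most 1 read in any library of the carcinoma lines.

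Among the regulators of mitochondrial biogenesis, 15 of the 16 listed were tested. In 786-O 4 were higher and 5 lower, and in 786-M1A 6 were higher and 7 lower relative to HK2, with 3 higher and 8 lower between the carcinoma lines. The shares called were 60.0%, 86.7% and 73.3%, beside 84.2%, 84.9% and 56.0% of all genes. PPARGC1A, the coactivator that drives transcription of respiratory genes in energy-demanding tissue, had 68.8, 64.0 and 65.9 CPM in HK2, 4.71, 4.70 and 4.96 in 786-O, and 0.111, 0.209 and 0.264 in 786-M1A. The lines were separated by large gaps, with log2 fold changes of -3.79 (adjusted p = 1.29e-22) in 786-O and -8.38 (adjusted p = 2.16e-24) in 786-M1A relative to HK2 and -4.59 (adjusted p = 3.36e-15) between the carcinoma lines. The 786-M1A values rest on 4, 8 and 10 reads, so that the sizes of the last pair are imprecise. Its relative PPARGC1B was lower in 786-M1A (-1.46, adjusted p = 5.37e-10), and TFB2M, a mitochondrial transcription factor, likewise (-1.09, adjusted p = 2.19e-15). TFAM, which packages and transcribes mitochondrial DNA, was at 145 to 148 CPM in HK2, compared with 90.7 to 94.6 in 786-O and 79.4 to 87.2 in 786-M1A (-0.65, adjusted p = 1.52e-12, and -0.80, adjusted p = 4.46e-14). The mitochondrial polymerases POLRMT (1.15, adjusted p = 8.21e-10) and POLG (1.12, adjusted p = 3.94e-15) were higher in 786-O, and NRF1 was higher in both lines (0.41 and 0.48). In the comparison of 786-M1A with 786-O, where the log2 fold change of PPARGC1A was -4.59, the subunit genes had a median of -0.05 and a range of -0.47 to 0.32. PPARGC1A was already down to 4.70 to 4.96 CPM in 786-O, against 64.0 to 68.8 in HK2. A relation between its level and the subunit genes was not tested.

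Of 7 tested genes that link HIF to mitochondria, 3 were higher and 4 lower in 786-O and 3 higher and 3 lower in 786-M1A relative to HK2 (7 and 6 of 7 called, beside 84.2% and 84.9% of all genes). EGLN3, a prolyl hydroxylase induced by HIF, had 1.80, 1.91 and 1.45 CPM in HK2, 45, 48.5 and 56.6 in 786-O, and 129, 124 and 130 in 786-M1A, with log2 fold changes of 4.87 (adjusted p = 5.92e-16) and 6.22 (adjusted p = 1.05e-17). The mitophagy receptor BNIP3L was lower (-1.07, adjusted p = 1.4e-15, and -0.76, adjusted p = 5.14e-13), and so was MXI1, an antagonist of MYC (-0.73, adjusted p = 4.82e-10, and -0.86, adjusted p = 3.74e-11). PDK1, the kinase that restrains pyruvate entry, was above 786-O in 786-M1A (0.34, adjusted p = 6.76e-05).

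Reads that could come from copies or from the other strand touch part of these values. For 50 of the 80 subunit genes GENCODE names pseudogenes after the gene, 189 in all, of which 6 are rows of the count table, and 26 subunit genes overlap a gene on the opposite strand that is also in the table. Without SDHA, UQCRB, UQCRH, UQCRHL and ATP5F1E, which have close copies, 62 of 75 subunit genes were called in 786-O, 66 in 786-M1A and 35 between the carcinoma lines, and 7, 14 and 0 passed the minimum of 1.5-fold.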

How the data were processed

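Poly(A) RNA of 9 cultures was sequenced from stranded libraries, and the authors counted reads per gene with featureCounts on GRCh38 and deposited whole-number counts. The annotation version and the strand setting are not given in the sources used here. The members and gene lists were chosen with earlier results of these data known. Counts were fitted in edgeR 4.0.16 (R 4.3.3, TMM, robust quasi-likelihood test, 3 groups without covariates) over the 12695 genes averaging 50 counts or more, with Benjamini-Hochberg adjustment over all of them and glmTreat for the minimum of 1.5-fold. SEs are the log2 fold change divided by the square root of the F statistic, which is not usable for genes with few reads or very large differences, so none is given for these. The steps were tested on simulated data. Subunit genes named in the text were, per complex and comparison, those of largest log2 fold change in each direction, the core subunits, isoforms and copies, with further genes added after their values were seen. The values of 1 core subunit are not reported here, and the gene stays in the counts and medians. Gene lists were named by their largest changes likewise. Positions and lengths were from GENCODE 44 and promoters from RefSeq (27745 of 28395 symbols matched). Alternatives were DESeq2 1.42.0, limma 3.58.1 (voom, and median-centered log2 counts in place of the variance stabilization of the study, whose VSN package was not used), RLE and upper-quartile factors, other count filters, fits of 2 lines, a replicate block and leaving out each library. With 30212291 to 45362428 reads per library, a limit of 3 counts corresponds, before scaling by the TMM factors, to 0.0661 to 0.0993 CPM, which covers counting error only.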

Additional observations from a re-analysis of the deposited data

How the results depend on the processing

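Of 1200 log2 fold changes of subunits recomputed per comparison, 1132 (786-O against HK2), 1154 (786-M1A against HK2) and 1153 (786-M1A against 786-O) stayed on the same side of the threshold. In the same order 53, 29 and 33 lost their call, and 15, 17 and 14 gained one. A change of sign in a gene called in neither fit was not counted. None changed direction while called. With DESeq2, 8 subunits of 786-M1A passed the minimum of 1.5-fold against HK2 in place of 15, and the cause was not tested. With upper-quartile normalization the median of complex III in 786-M1A against HK2 was 0.14 in place of 0.18. Leaving out each library gave 60 to 65, 64 to 71 and 30 to 38 called subunits, 6 to 8, 12 to 14 and 0 past 1.5-fold, and a median of complex II between the carcinoma lines of 0.00 to 0.03. The median of complex I ranged from 0.06 to 0.16 in 786-O and from -0.01 to 0.10 in 786-M1A against HK2, and that of complex V in 786-O from -0.06 to 0.00. In the comparisons with HK2 no pairing by replicate number was seen, since correlations of same-numbered deviations were between -0.167 and 0.0376. Between the carcinoma lines they were 0.215, 0.074 and 0.11, each the best match of its library, a hint from the data in which not every pair was above 0.1. With the replicate block 63, 69 and 37 subunits were called, and 8, 15 and 0 passed 1.5-fold. Windows of 5 Mb and 20 Mb, added after the data were seen, gave r of 0.799 and 0.792 for 786-O against HK2, 0.785 and 0.768 for 786-M1A against HK2, and 0.644 and 0.623 between the carcinoma lines. The largest log2 fold change of a subunit not called was 0.12, 0.09 and 0.21, so that differences of this size could go undetected at 3 libraries per line.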
